A study of Mus musculus with 12 samples.

Results

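Mas-related G protein-coupled receptors are a rodent-expanded family of cell surface receptors that were first known from itch-sensing neurons. In skin, Mrgprb2 is the mouse counterpart of human MRGPRX2 and sits on connective tissue mast cells, where cationic peptides such as substance P and antimicrobial peptides trigger degranulation without IgE. Mrgpra2a and Mrgpra2b are known as neutrophil receptors for keratinocyte defensins. Mrgprb1 and Mrgprb3 belong to the same subfamily as Mrgprb2, and their ligands are less well defined. The 5 genes described here, Mrgpra2a, Mrgpra2b, Mrgprb1, Mrgprb2 and Mrgprb3, are 5 of 36400 genes measured by RNA sequencing of mouse dorsal skin. They were selected on these same libraries, because Mrgpra2b was far higher and Mrgprb3 far lower with DNCB, so their values against DNCB or control skin are given as a description without a test.

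The mice were female Balb/C animals, bought at 6 weeks of age, with 3 mice in each of 4 groups and 1 library per mouse. Control mice received only the acetone and olive oil vehicle on shaved back skin. The other 3 groups were sensitized with 1% 2,4-dinitrochlorobenzene (DNCB), a hapten that produces an atopic dermatitis-like eruption, and then challenged with 0.5% DNCB. The DNCB group received no mesenchymal stem cells (MSCs). In the scMSC group, 2000000 human umbilical cord MSCs in 100 µL were injected under the dorsal skin 4 times between day 13 and day 25. In the scivMSC group each of the 4 injections was divided, with 50 µL going under the dorsal skin and 50 µL to the tail vein. Skin was taken on day 30. The MSCs are human cells in a mouse with its own immune system, and none of the 4 groups is described as given the culture solution alone.

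All 12 libraries held keratinocyte transcripts at a summed 5000 to 19400 FPKM over 6 genes, and the 4 fibroblast genes were detected in every group. The libraries held 63877153 to 75134001 estimated counts, at about 4 estimated counts per sequenced fragment. A gene was taken as not detected in a group when none of its libraries exceeded 12 estimated counts, or 3 fragments, and this floor covers counting error only. FPKM, which are fragments scaled to transcript length and library size, compare levels between genes per unit length. These are whole-skin samples, in which fewer cells of a type and less RNA per cell cannot be told apart.

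All 5 genes lie on chromosome 7, on the minus strand (coordinates of GRCm38). Mrgpra2a (ENSMUSG00000093973) spans 47426328 to 47452139 and Mrgpra2b (ENSMUSG00000096719) spans 47463806 to 47528862, next to each other within the family's cluster. Mrgprb1 (ENSMUSG00000070547) spans 48444113 to 48456342, Mrgprb2 (ENSMUSG00000050425) spans 48550965 to 48558086, and the single-exon Mrgprb3 (ENSMUSG00000070546) spans 48642803 to 48643811. The Mrgpra2a and Mrgpra2b transcripts of GENCODE M21 were 99.8% identical, with 3 mismatches over 1236 aligned bases. Of the 50-base windows in Mrgpra2a, 87.5% also occurred in another transcript, and 85.3% of those in Mrgpra2b. Of the 100-base windows, 73.4% and 71.8% did. Most of either transcript therefore cannot be assigned to one gene by a stretch of these lengths. How much of the counts this covers was not measured, and the summed counts of both genes are given as well. Mrgprb1, Mrgprb2 and Mrgprb3 shared 0 windows of 50 bases with any other transcript. The coding differences between Mrgpra2a and Mrgpra2b are few enough to print. The sequences below are 21-base stretches of the reference transcripts, 5′ to 3′ on the minus strand, shown because reads over them are what separates these genes, and the capital is the base that differs.

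Mrgpra2a, chr7:47427148-47427168: acaccattatAatggttgtct

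Mrgpra2b, chr7:47464622-47464642: acaccattatGatggttgtct

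Mrgpra2a, chr7:47426609-47426629: ttcagacatcGgttgaagcac

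Mrgpra2b, chr7:47464083-47464103: ttcagacatcAgttgaagcac

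The third difference lies outside the coding sequence. The reference comes from another mouse strain than the Balb/C mice studied, and whether these bases separate the genes in this strain was not tested.

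The similarity extends upstream. RefSeq promoter sequences of GRCm38.p6 matched 4 of the 5 genes, all but Mrgprb3, and the 250 bases before the annotated start were 100% identical between Mrgpra2a (chr7:47452165-47452414) and Mrgpra2b (chr7:47489583-47489832). The RefSeq start of Mrgpra2b lies inside the longer span that the deposited table gives. Mrgprb1 and Mrgprb2 were 47.7% identical over the same window. The shared Mrgpra2a and Mrgpra2b sequence is printed because these genes had parallel values, 5′ to 3′ on the minus strand. The capitals mark a match on the opposite strand to AGGAAGT, the core of sites bound by Ets factors such as PU.1, at 20 to 14 bases before the start.

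Mrgpra2a and Mrgpra2b, upstream 250 bases: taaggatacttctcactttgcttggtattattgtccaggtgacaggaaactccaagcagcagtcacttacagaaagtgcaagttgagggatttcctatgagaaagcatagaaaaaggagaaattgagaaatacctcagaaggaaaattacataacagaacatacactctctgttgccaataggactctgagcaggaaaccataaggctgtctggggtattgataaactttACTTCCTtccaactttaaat

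On either strand, AGGAAGT occurred in 7.69% of 32851 promoter windows of this length, AGATAA (the GATA factor core) in 9.99% and TTGCNNAA (the C/EBP core) in 9.56%. Neither AGATAA nor TTGCNNAA was found in the Mrgpra2a and Mrgpra2b window, and none of the 3 was found in the Mrgprb1 and Mrgprb2 windows. A match is a string of letters, and binding was not measured.

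Mrgpra2a and Mrgpra2b were present in DNCB skin and almost nowhere else. Mrgpra2a stood at 7.61, 6.59 and 5.11 FPKM in DNCB replicates 1 to 3, from 708, 676 and 515 estimated counts. It was listed at 0 in 2 control libraries, with 15 estimated counts in control replicate 3, and at 0 in all 6 MSC libraries. Thus every DNCB library was far above all 9 others, and 1 control library held about 4 fragments. Mrgpra2b stood at 9.16, 11.0 and 6.98 FPKM in the DNCB libraries, from 917, 1214 and 755 estimated counts. It was listed at 0 in all control and scivMSC libraries and in 2 scMSC libraries, with 19 estimated counts in scMSC replicate 1. The DNCB libraries again did not overlap those of any other group. Set against the floor of 12 estimated counts per library, Mrgpra2a was at least 39.2-fold higher in DNCB than in control skin, at least 53.1-fold higher than in scMSC and at least 51.8-fold higher than in scivMSC skin. The corresponding bounds for Mrgpra2b were at least 64.1-fold, 67.9-fold and 78.4-fold higher in DNCB skin. The control library with 15 and the scMSC library with 19 estimated counts entered at their own counts, so there only the other libraries are bounded. The summed counts of both genes were 1625, 1890 and 1270 in DNCB skin and at most 19 in any other library. The ratio of Mrgpra2b to Mrgpra2a FPKM was 1.2, 1.67 and 1.36 in the DNCB libraries, so Mrgpra2b was listed higher in all 3, with the shared sequence above as the limit on that split.

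**Figure D1:**
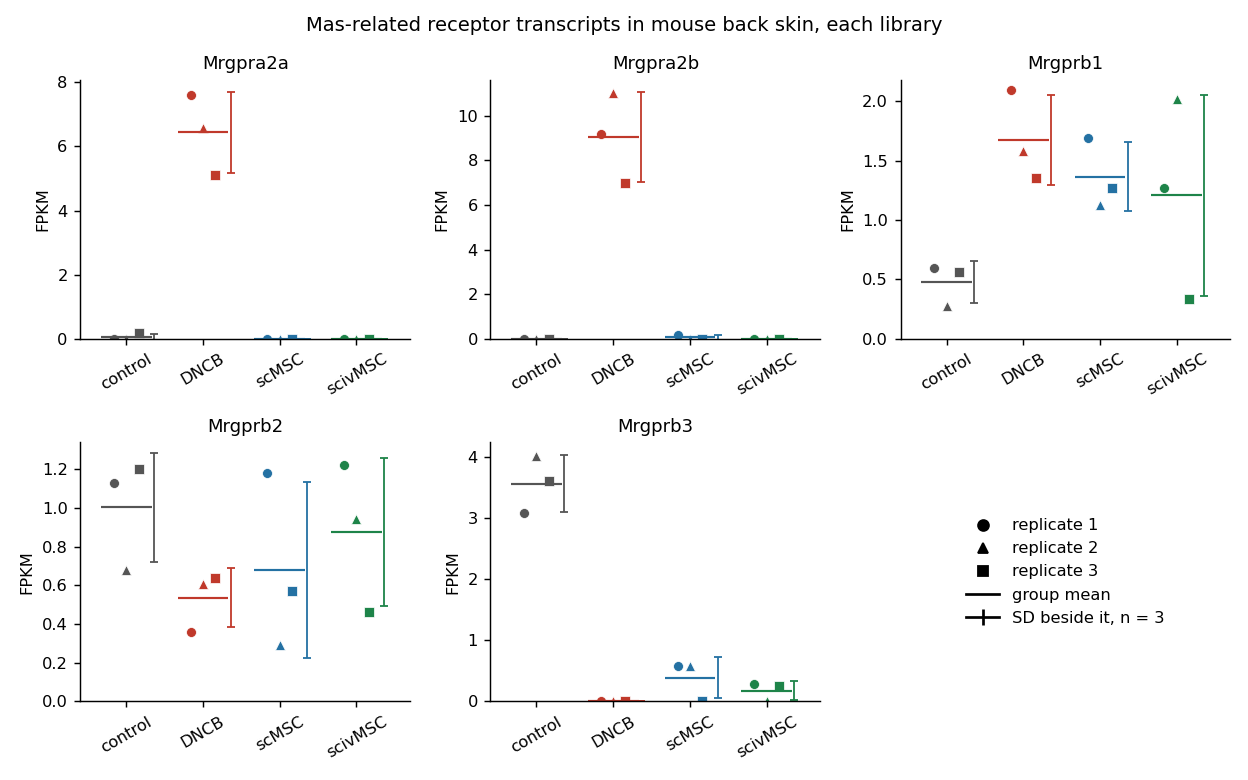
FPKM of the 5 receptors in each library, by group (points, libraries; line, group mean; bar, SD, n = 3, cut at 0). Mrgpra2a and Mrgpra2b are seen in DNCB skin at 5.11 to 11.0 FPKM, Mrgprb3 is seen mainly in control skin at 3.08 to 4.02 FPKM, and Mrgprb1 and Mrgprb2 are present in all 4 groups.

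Neutrophil transcripts took the same course. All 15 neutrophil genes measured rose in DNCB against control skin, with a median log2 fold change of 4.76, against 0.022 over all 21890 genes tested, and -0.016 and -0.023 over all genes in the other comparisons below, which share the same DNCB libraries (edgeR quasi-likelihood test, Benjamini-Hochberg adjusted p under 0.05 and more than 2-fold, 6.59% of all genes tested). Against scMSC skin all 15 were higher in DNCB skin (median 6.31, 3.84% of all genes), and against scivMSC skin 13 of 15 (median 4.96, 2.33% of all genes). The 2 not called were Trem1 at 4.96 ± 1.42 (log2 fold change ± SE, edgeR adjusted p = 0.0573) and Ngp at 2.86 ± 1.21 (edgeR adjusted p = 0.187). Without scivMSC replicate 1 this last count was 8. Ly6g, Mmp8 and Cd177 reached the minimum mean of 0.1 FPKM for testing only through the DNCB libraries. Their calls, and their part in the counts and medians, follow from that filter. S100a9, S100a8 and Retnlg had the highest means over the 12 libraries, with S100a9 at 94.8 ± 34.1 FPKM in control skin (SD, n = 3), 1970.0 ± 348.0 in DNCB, 24.0 ± 17.5 in scMSC and 54.5 ± 40.2 in scivMSC skin. Keratinocytes also make S100a8, S100a9 and Lcn2. Without these 3, the remaining 12 genes summed to 3.99 to 7.86 FPKM in control libraries, 208 to 288 in DNCB, 3.23 to 6.76 in scMSC and 6.43 to 21.5 in scivMSC libraries. Ly6g, a defining neutrophil surface protein, was at 3.15 ± 1.61 FPKM in DNCB skin and listed at 0 in all 9 other libraries. The part of neutrophil number in the Mrgpra2a and Mrgpra2b values was not tested.

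Mrgprb1 was higher in all 3 DNCB libraries than in any control library. It stood at 0.597, 0.279 and 0.564 FPKM in control skin and at 2.09, 1.58 and 1.35 FPKM in DNCB skin. In scMSC skin the values were 1.69, 1.13 and 1.27 FPKM, all above the controls, and in scivMSC skin 1.27, 2.02 and 0.333 FPKM. The scivMSC group therefore spanned nearly the whole range, with replicate 3 among the control values and replicate 2 among the DNCB values. The log2 fold change was 1.62 ± 0.51 (SE) for DNCB against control, 1.35 ± 0.51 for scMSC against control and 1.13 ± 0.51 for scivMSC against control. DNCB and the MSC groups lay within 1 SE of each other, at 0.28 ± 0.50 against scMSC and 0.49 ± 0.50 against scivMSC. In the order of group means, DNCB, scMSC and scivMSC are neighbours whose libraries overlap, and only control lies apart from DNCB and scMSC.

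Mrgprb2, the mast cell receptor of cationic peptides, had the opposite order. It stood at 1.13, 0.678 and 1.2 FPKM in control skin and at 0.361, 0.609 and 0.64 FPKM in DNCB skin. The groups did not overlap in FPKM, although the lowest control and a DNCB library each held 105 estimated counts. The scMSC values were 1.18, 0.291 and 0.57 FPKM and the scivMSC values 1.22, 0.945 and 0.463 FPKM, so both MSC groups overlapped control and DNCB skin. The log2 fold change was -1.08 ± 0.51 for DNCB against control, -0.34 ± 0.50 against scMSC and -0.69 ± 0.51 against scivMSC. At 57 to 208 estimated counts in 11 of the 12 libraries and 50 in scMSC replicate 2, Mrgprb2 rests on few fragments.

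Mrgprb1 was higher and Mrgprb2 lower in DNCB than in control skin without overlap, so a gap in their ratio between these groups was fixed in advance. The ratio is given as a description, and how often other gene pairs separate control skin was not counted. Mrgprb1 over Mrgprb2 in FPKM was 0.527, 0.412 and 0.468 in the control libraries and 5.78, 2.6 and 2.11 in the DNCB libraries. It was 1.43, 3.89 and 2.23 in scMSC skin and 1.04, 2.13 and 0.719 in scivMSC skin. Mrgprb2 was thus the higher of the pair in all control libraries and in scivMSC replicate 3, and Mrgprb1 in the 8 others.

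**Figure D2:**
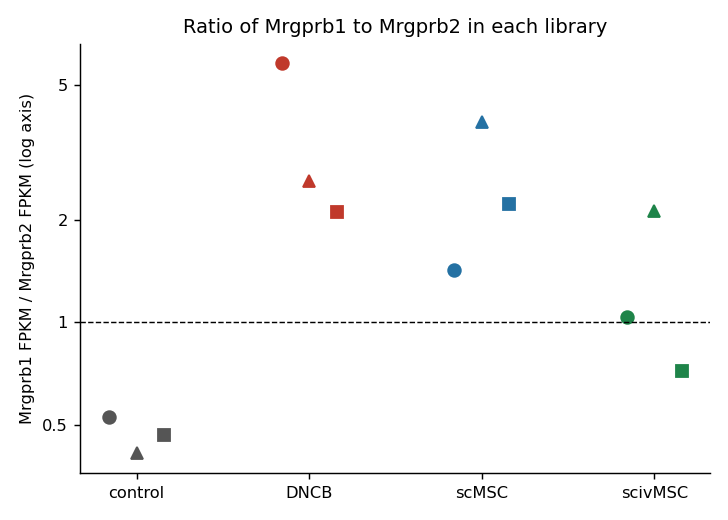
Ratio of Mrgprb1 to Mrgprb2 FPKM in each library, by group, on a log axis (circle, triangle and square, replicates 1, 2 and 3; dashed line, equal FPKM). The 3 control libraries lie at 0.412 to 0.527, below all 9 others, and scivMSC replicate 3 at 0.719 is the next lowest.

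Mast cell genes were examined beside these receptors. Of 14 listed genes 13 were tested, and 5 rose in DNCB against control skin, with 0 lower and a median log2 fold change of 1.51, beside 6.59% of all genes called higher and 7.57% called lower. They were Tpsab1 and Tpsb2, which encode tryptases, Fcer1a, the IgE-binding chain of the high-affinity receptor, Hdc, which makes histamine, and Il1rl1, the interleukin 33 receptor. Tpsb2 differed by 1.95 ± 0.57 (edgeR adjusted p = 0.0282) and Hdc by 4.08 ± 0.61 (edgeR adjusted p = 0.00137). Neutrophils and basophils also express Hdc, and other leukocytes Il1rl1. When scivMSC replicate 3 was left out of the shared fit, 9 of the mast cell genes were called. Against scMSC and against scivMSC skin 1 gene was called, Hdc in both, and the medians were 0.57 and 0.83, beside 3.84% and 2.33% of all genes called higher. The summed mast cell list was 26.0 to 42.9 FPKM in control libraries, 128 to 150 in DNCB, 59.4 to 130 in scMSC and 22.5 to 127 in scivMSC libraries. The lowest of these sums, 22.5 FPKM, was that of scivMSC replicate 3, the same library that held the lowest Mrgprb1 value outside the control group. That library also had the lowest sums of macrophage genes (24.3 FPKM) and fibroblast genes (91.9 FPKM) of all 12. The part of mast cell number in the values of Mrgprb1 and Mrgprb2 was not tested.

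Across the 12 libraries Mrgprb1 followed the mast cell protease genes Tpsb2, Cpa3, Cma1 and Mcpt4 closely and Mrgprb2 did not. Pearson's r of log2(FPKM + 0.1) between Mrgprb1 and Tpsb2 was 0.957, the highest of 14382 candidate genes (rank 4, with r = 0.948, at a pseudocount of 1), and r was 0.915 with Cpa3, 0.92 with Cma1 and 0.922 with Mcpt4. For Mrgprb2 the same values were 0.088, 0.231, 0.215 and 0.202. Over the 9 libraries without the controls, r with Tpsb2 was 0.92 for Mrgprb1 and 0.533 for Mrgprb2. The 12 libraries share their group differences, so these are descriptions of parallel values. Kit, which melanocytes also express, was less like Mrgprb1, with r = 0.518 and, over the 9 libraries without the controls, -0.171. Kit was at 4.59 ± 2.11 FPKM in scMSC skin against 2.37 ± 0.0715 in DNCB skin. No r was taken for the other listed mast cell genes. Of these, Ms4a2, Gata2 and the barely detected Cma2 had lower means in both MSC groups than in control skin. Tpsab1, Fcer1a, Hdc, Il1rl1 and Tph1 had higher means there, and Hpgds was lower in scMSC and higher in scivMSC skin.

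**Figure D3:**
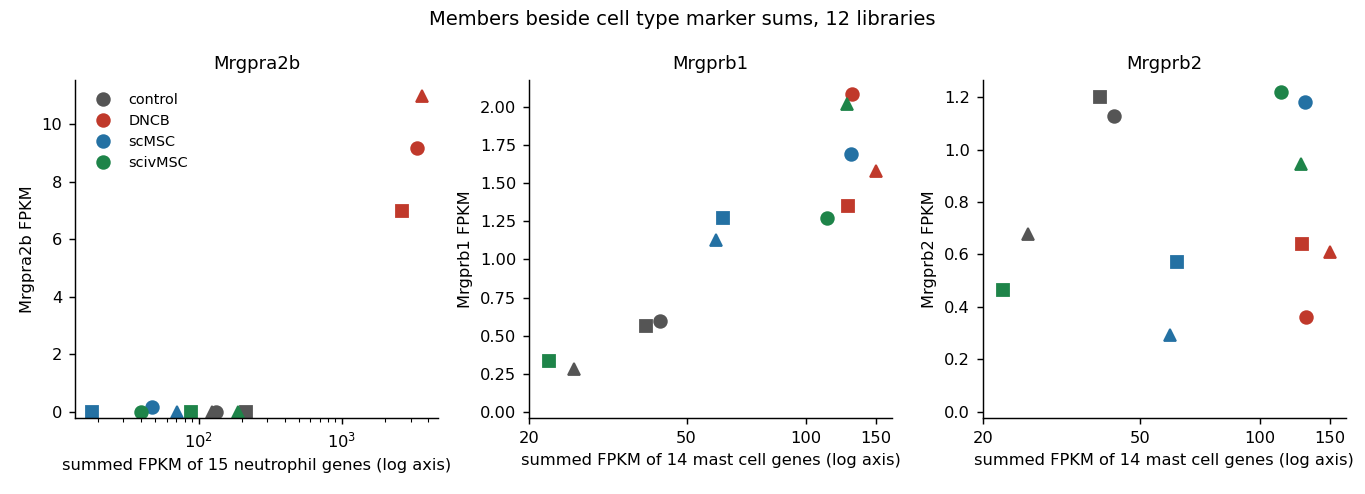
FPKM of Mrgpra2b against the summed FPKM of 15 neutrophil genes, and of Mrgprb1 and Mrgprb2 against the summed FPKM of 14 mast cell genes (log x axes), 1 point per library (circle, triangle and square, replicates 1, 2 and 3). The 3 DNCB libraries stand alone in both axes of the first panel; Mrgprb1 is higher in libraries with a larger mast cell sum, from 0.279 FPKM to 2.09 FPKM, and Mrgprb2 shows no such order.

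Mrgprb3 was a transcript of control skin. It stood at 3.08, 4.02 and 3.61 FPKM in the control libraries, from 225, 302 and 256 estimated counts, and was listed at 0 in all 3 DNCB libraries. In scMSC skin it was at 0.588, 0.582 and 0 FPKM and in scivMSC skin at 0.28, 0 and 0.257 FPKM. The control libraries thus overlapped no other group, and 4 of the 6 MSC libraries held 19 to 49 estimated counts where DNCB libraries held none. Control skin was at least 27.2-fold higher than DNCB, at least 9.01-fold higher than scMSC and at least 17.3-fold higher than scivMSC skin. In control skin Mrgprb3, at 3.57 ± 0.47 FPKM (SD, n = 3), was the highest of the 5 receptors per unit length, ahead of Mrgprb2 at 1.01 ± 0.285, while in DNCB skin the order was led by Mrgpra2b at 9.05 ± 2.01 and Mrgpra2a at 6.44 ± 1.26.

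Counted over the 5 receptors, the FPKM of DNCB and control libraries did not overlap for 5 of 5, which the choice of members in part fixed, against 47.7% of all genes. DNCB did not overlap scMSC for 2 of 5, Mrgpra2a and Mrgpra2b, against 33.1% of all genes, and did not overlap scivMSC for the same 2 against 32.7%. The scMSC and control libraries were apart for Mrgprb1 and Mrgprb3 (37.6% of all genes), and scivMSC and control for Mrgprb3 (34.5%).

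Whether the route of MSC injection mattered is the comparison in which the receptors could be tested, since it contrasts no library on which they were chosen. The estimate of spread still came from all 12 libraries, DNCB and control included. Mrgpra2a and Mrgpra2b are left out of this comparison, since both met the minimum level only through the DNCB libraries and hold almost no counts here. Of Mrgprb1, Mrgprb2 and Mrgprb3, 0 passed the threshold in scivMSC against scMSC skin, in edgeR, DESeq2 or limma. At an unadjusted p under 0.05 the count was also 0, and the smallest unadjusted p over the 23 settings run, left-out libraries included, was 0.0822. Of all genes tested, 0.00457% passed. Mrgprb1 differed by -0.21 ± 0.50 on the log2 scale (SE, edgeR adjusted p = 0.986), Mrgprb2 by 0.35 ± 0.50 (edgeR adjusted p = 0.971) and Mrgprb3 by -1.10 ± 1.33 (edgeR adjusted p = 0.955). Mrgpra2a was listed at 0 in all 6 libraries, and Mrgpra2b differed only by the 19 estimated counts of scMSC replicate 1. The FPKM of these groups overlapped for Mrgprb1, Mrgprb2 and Mrgprb3, and 10.8% of all genes did not overlap. With a standard error of 0.50 on the log2 scale, a difference of that size was not detectable for Mrgprb1 and Mrgprb2.

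Among the other Mas-related receptor genes, 19 rows were present and 8 reached the minimum mean of 0.1 FPKM. Against control skin, 3 of the 8 fell in DNCB skin and 0 rose (7.57% of all genes were called lower), with a median log2 fold change of -0.72. The 3 were the pseudogenes Mrgprb9-ps (edgeR adjusted p = 0.00361) and Mrgprb11-ps (edgeR adjusted p = 0.00661), and Mrgpra9 (edgeR adjusted p = 0.0209). Mrgprb11-ps was at 11.0, 10.8 and 13.3 FPKM in control skin and at 0, 0 and 0.173 FPKM in DNCB skin, which made it the most abundant Mas-related transcript of control skin, at least 82.8-fold higher there than in DNCB skin. DNCB replicate 3, over the floor at 14 estimated counts, entered that fold at its own count. Mrgprb9-ps was at 1.18, 0.66 and 2.22 FPKM in control skin and listed at 0 in all DNCB libraries. Both were low in the MSC groups, at most 0.644 FPKM. Mrgpra9 was at 0.742, 0.198 and 0.291 FPKM in control skin, from 17 to 60 estimated counts, and was not detected in the other groups. It reached the minimum mean only through control skin, so its call follows from that filter. Against scMSC skin, Mrgprf was higher in DNCB (1.53 ± 0.42, edgeR adjusted p = 0.0352) and Mrgprb9-ps lower (edgeR adjusted p = 0.0166), beside 4.66% of all genes called lower. Against scivMSC skin 0 of the 8 passed in edgeR, with 3.13% of all genes called lower. At an unadjusted p under 0.05 there were 3, and DESeq2 called 2 and limma 0.

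**Figure D4:**
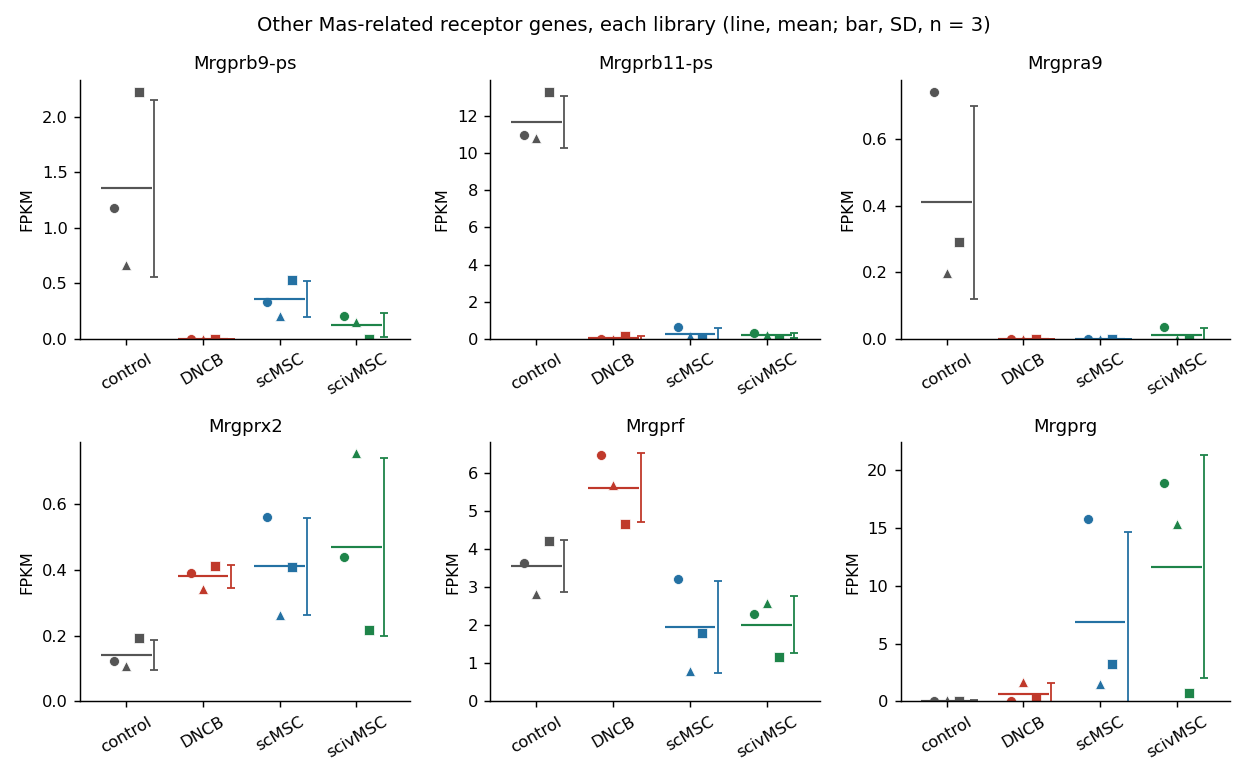
FPKM of 6 other Mas-related receptor genes in each library, by group (points, libraries; line, mean; bar, SD, n = 3, cut at 0; circle, triangle and square, replicates 1, 2 and 3). Mrgprb9-ps, Mrgprb11-ps and Mrgpra9 are seen mainly in control skin, Mrgprx2 is lowest there, and Mrgprg reaches 18.9 FPKM in MSC-treated skin with wide spread.

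Mrgprb3 and these pseudogenes are neighbours. Mrgprb9-ps (48590802 to 48591693, plus strand) and Mrgprb11-ps (48684621 to 48685614, minus strand) flank Mrgprb3, and each shared 0 windows of 50 bases with any other transcript, so no stretch of that length matches more than one of them. Within 150000 bases, a window chosen after the values were seen, Mrgprb2 was also lower in DNCB than in control skin, by less, as described above. Mrgprx2, which overlaps that window on the same side, went the other way, with means of 0.141 FPKM (control) and 0.381 FPKM (DNCB). Zdhhc13, on the other side, had means of 5.09 FPKM (control), 11.7 FPKM (DNCB), 22.6 FPKM (scMSC) and 13.8 FPKM (scivMSC).

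Mrgprx2, the mouse gene of that symbol and a near relative of Mrgprb1 (79.5% identity of transcripts over 2424 aligned columns), was at 0.122, 0.107 and 0.193 FPKM in control skin and at 0.39, 0.343 and 0.411 FPKM in DNCB skin. Its log2 fold change of 1.26 ± 0.44 did not pass the threshold (edgeR adjusted p = 0.0596). Against control skin it was 1.37 ± 0.44 in scMSC (edgeR adjusted p = 0.053, with 5.12% of all genes called higher), and 1.55 ± 0.44 in scivMSC skin, which passed (edgeR adjusted p = 0.0428, with 3.5% of all genes called higher). Its r with Tpsb2 was 0.873. Of the receptors known from sensory neurons, Mrgprd held 15 estimated counts in 1 control library and 0 in all others, and Mrgprx1 at most 31. Sensory neuron genes as a list summed to at most 5.86 FPKM in any library, and Scn10a, Trpa1 and Sst were not detected in any group. Nppb, at group means of 1.14 to 2.91 FPKM, and Trpv1, at 0.132 to 0.316 FPKM, were detected in all 4 groups.

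Transcripts for known or proposed ligands were measured in the same skin. Of 14 listed precursor genes 13 are in the table used here and 11 were tested. Against control skin 2 rose in DNCB skin and 1 fell, with a median log2 fold change of 1.55, beside 6.59% and 7.57% of all genes. Defb1, an epithelial defensin, rose by 1.77 ± 0.36 (edgeR adjusted p = 0.00533), from 8.7 ± 3.02 to 33.6 ± 0.999 FPKM (SD, n = 3). Penk, the enkephalin precursor, rose by 2.38 ± 0.38 (edgeR adjusted p = 0.00168). Defb6 fell by 2.02 ± 0.46 on the log2 scale (edgeR adjusted p = 0.0087), from 127.0 ± 11.0 to 35.4 ± 18.9 FPKM. Against scMSC skin 4 were higher in DNCB skin and 0 lower (median 1.36, beside 3.84% and 4.66% of all genes). Defb3 was at 21.6 ± 3.14 FPKM in DNCB and 0.459 ± 0.795 in scMSC skin (edgeR adjusted p = 0.0352), and Defb14 at 32.4 ± 14.8 and 4.65 ± 3.45 FPKM (edgeR adjusted p = 0.0198). The others were Penk and Ctss, the gene of cathepsin S, a protease known to activate receptors of this family. Against scivMSC skin 0 passed in edgeR (median 0.9), with 5 at an unadjusted p under 0.05, while DESeq2 called 4 and limma 2. Camp, the cathelicidin precursor, was at 1.2 ± 0.509 FPKM in DNCB skin and 0.141 ± 0.122 in scMSC skin. It was not detected in control or scivMSC skin and passed in no comparison. Tac1, the substance P precursor, was at 0.0889 FPKM in DNCB skin and too low to test. Not detected were Tac1 in scivMSC skin, Pomc in scMSC skin, Defb4 in control skin, and Adcyap1 in control, DNCB and scMSC skin.

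**Figure D5:**
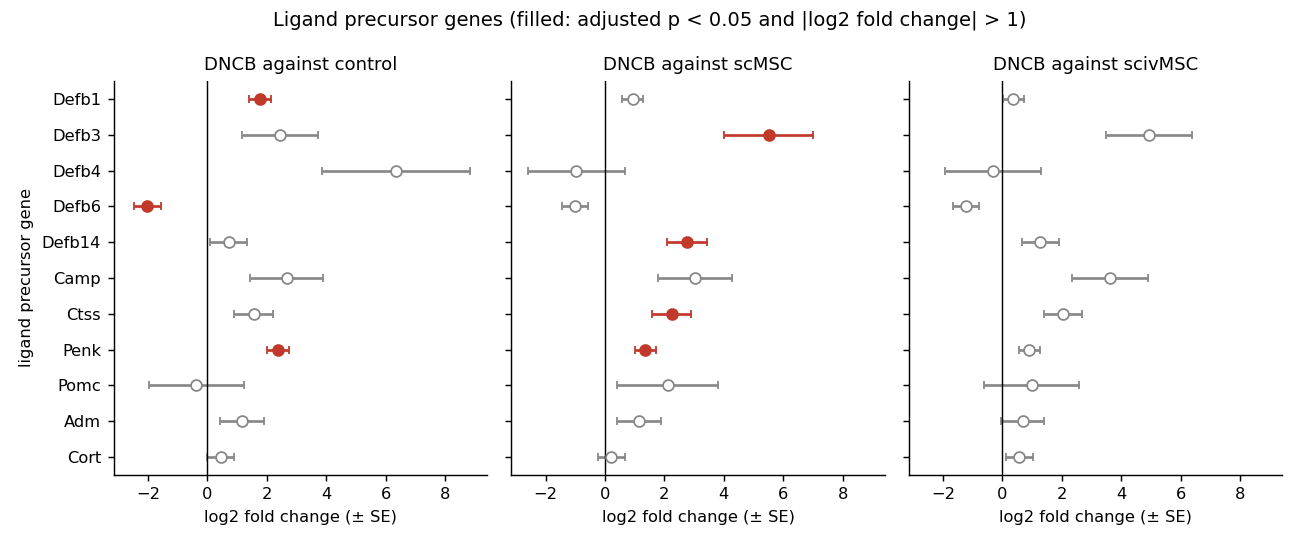
Log2 fold change ± SE of 11 ligand precursor genes in DNCB against each other group (edgeR; filled red, past the threshold; open grey, not past it). Defb1, Penk and Defb6 pass against control, Defb3, Defb14, Ctss and Penk against scMSC, and none against scivMSC.

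The signalling genes through which these receptors act, Gq and Gi proteins, phospholipase C beta, inositol trisphosphate receptors, store-operated calcium entry and arrestins, moved in both directions. Of 18 genes, 2 rose and 3 fell in DNCB against control skin, with a median log2 fold change of 0.27, beside 6.59% and 7.57% of all genes. Arrb2, an arrestin that ends receptor signalling, rose by 1.02 ± 0.19 (edgeR adjusted p = 0.0035) and Itpr1 by 1.01 ± 0.33 (edgeR adjusted p = 0.044). Gna14, a Gq family subunit, fell by 2.53 ± 0.38 (edgeR adjusted p = 0.00132). Stim1 and Orai1, the sensor and the channel of store-operated calcium entry, fell by 1.17 ± 0.14 (edgeR adjusted p = 0.000685) and by 1.51 ± 0.45 (edgeR adjusted p = 0.0299). Arrb2 and Itpr1 lay close to the 2-fold minimum, and 12 of the 18 passed without it, as did 25.3% of all genes. Against scMSC skin Plcb1 was higher (1.40 ± 0.31, edgeR adjusted p = 0.0148) and Gna14 lower in DNCB skin (-1.74 ± 0.37, edgeR adjusted p = 0.0114), and against scivMSC skin Arrb2 alone passed (1.03 ± 0.19, edgeR adjusted p = 0.011). Gnai2, a Gi subunit abundant in leukocytes, was at 73.3 ± 1.9 FPKM in DNCB skin and 38.7 ± 2.88, 38.7 ± 5.69 and 38.8 ± 8.36 in control, scMSC and scivMSC skin, a difference under 2-fold in each comparison.

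Genes with the most similar pattern were listed for each receptor by Pearson's r of log2(FPKM + 0.1) over the 12 libraries. For Mrgpra2a these were Gm15590 (r = 0.972), Tlr2, Samsn1, Col8a1 and Hcar2, and for Mrgpra2b Srgn (r = 0.978), Col8a1, Ifitm1, Samsn1 and Cd300lf. Srgn encodes the granule proteoglycan serglycin and was at 116.0 ± 29.9 FPKM in DNCB skin and 5.67 ± 1.75 in control skin. With a pseudocount of 1, only 1 of the 5 remained for each, and Fpr2 (r = 0.995) and Fpr1 (r = 0.994), formyl peptide receptors of neutrophils, came first. Since both receptors are at or near 0 in 9 libraries, such an r reflects mainly the 3 DNCB libraries against the rest. Mrgprb1 was followed after Tpsb2 by Aff4, Mob1a, Ago3 and Tmod3. Mrgprb2 was most like Tns1 (r = 0.967), which encodes the adhesion protein tensin 1, then Rusc2, Abca8b, Enpp5 and Pskh1. Mrgprb3 was most like Trp53inp2 (r = 0.981), then Krt77, Skint10, Me1 and Dgcr6. With a pseudocount of 1, Mrgprb11-ps came first (r = 0.974) and 2 of these 5 remained. Krt77, a type II keratin, was at 835.0 ± 174.0 FPKM in control skin and 0.748 ± 0.649 in DNCB skin, with 14.9 ± 15.2 and 7.85 ± 2.45 FPKM in the scMSC and scivMSC groups. Skint10 belongs to an epidermal immunoglobulin family and was at 6.29 ± 1.13 FPKM in control and 0.484 ± 0.0551 in DNCB skin. Between the receptors themselves, r was 0.975 for Mrgpra2a and Mrgpra2b, -0.732 for Mrgprb1 and Mrgprb3, and -0.051 for Mrgprb1 and Mrgprb2.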

How the data were processed

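Total RNA from dorsal skin of 12 mice was sequenced. The authors deposited FPKM, which they scaled to gene length and depth, beside estimated counts in whole numbers without normalization. The submitters' processing notes name HISAT2 2.0, StringTie 1.3.0, Bowtie 0.12.2 and build mm8 without their roles, whereas the coordinates in the table are those of GRCm38. The depth was 63877153 to 75134001 estimated counts per library. The dosing schedule and age come from the study's methods. Blood and Vip were not analysed here.

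Estimated counts, used as deposited, were fitted for the 21890 genes whose mean FPKM reached 0.1, in 1 model of the 4 groups with the quasi-likelihood test of edgeR 4.0.16 (R 4.3.3, TMM). Calls needed p under 0.05 after Benjamini-Hochberg adjustment and a log2 fold change over 1 in either direction. The receptors and gene lists were chosen with earlier results of these data known, so the receptors were tested only in scivMSC against scMSC skin. Bounds set values at or below 12 estimated counts to 12, on CPM scaled by TMM, a measure chosen after seeing the data because fitted folds against 0 depend on the prior count. From the receptor, ligand and signalling lists the text names the genes called and those not detected, except receptors too low to test, for each receptor the 5 genes most alike among those averaging at least 1 FPKM, and from marker lists the 3 most abundant. Alternatives used DESeq2 1.42.0, limma 3.58.1, other filters, scalings and pseudocounts, and left out each library. On simulated data, the edgeR step called 193 of 200 changed genes with 7 false calls. That simulation used the same spread for all genes, lower than the common biological coefficient of variation of 0.42 estimated here. Its changed genes had large folds and a minimum mean count, so the recovery does not carry over to low genes. Tables used Python 3.11.15, pandas 2.3.3 and Biopython 1.88, and figures matplotlib 3.10.9. Separate mice were the replicates.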

Additional observations from a re-analysis of the deposited data

How the results depend on the processing

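The bounds depend on the floor. At a floor of 4 estimated counts the least log2 folds of DNCB over control, scMSC and scivMSC skin were 6.07, 7.32 and 7.28 for Mrgpra2a and 7.59, 6.79 and 7.88 for Mrgpra2b, and those of control over DNCB and scivMSC skin for Mrgprb3 were 6.35 and 4.32. At a floor of 20 they were 4.67, 4.99 and 4.96, then 5.26, 5.59 and 5.56, then 4.03 and 3.91. Leaving out 1 library gave 2.75 to 3.54 for Mrgprb3 in control over scMSC skin (3.17 with all libraries) and 3.86 to 4.28 over scivMSC skin (4.12). These bounds have no limma value. With limma on log2(FPKM + 1), which shrinks low genes, the log2 fold changes of Mrgprb1 were 0.85 for DNCB and 0.68 for scMSC against control, and that of Mrgprb2 for DNCB against control was -0.38. For Mrgprb1 in scivMSC against scMSC skin the sign turned without scivMSC replicate 3, to 0.25 (range -0.78 to 0.25).

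Counts of called genes moved with the setting, and the cause was not tested. Other Mas-related genes numbered 1 of 3 (DNCB against control) and 1 of 2 (against scMSC) with a mean of at least 1 FPKM, where fewer genes are tested, and 1 of 2 with limma on log2(FPKM + 1) or only the 6 libraries compared. Against scivMSC they numbered 1 in place of 0 with DESeq2 size factors, that filter, limma on log2(FPKM + 1), counts divided by 4 and only 6 libraries, and 2 with the DESeq2 Wald test. Ligand genes against control numbered 5 in place of 3 with DESeq2, limma at pseudocounts 0.1 and 1, counts divided by 4 and 6 libraries. Against scivMSC they numbered 4 in place of 0 with DESeq2, 2 with limma at 0.1 and counts divided by 4, and 1 with the 1 FPKM filter, limma at 1 and 6 libraries. Signalling genes against control numbered 3 in place of 5 with DESeq2 size factors, DESeq2, no filter, the 1 FPKM filter, limma at 0.1 and 0.01 and 6 libraries, 2 with limma at 1, and 12 with no minimum fold. Against scMSC they numbered 1 in place of 2 with the 1 FPKM filter and 6 libraries, 0 with limma at 1 and 5 with no minimum fold. Against scivMSC they numbered 2 in place of 1 with DESeq2, 6 libraries and no minimum fold, and 0 with limma at 1. Mast cell genes against control numbered 9 in place of 5 with 6 libraries, against scMSC 2 in place of 1 with DESeq2, limma at 1 and no minimum fold and 3 with 6 libraries, and against scivMSC 2 in place of 1 with DESeq2 and limma at 1.

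Leaving out 1 library gave, against control, scMSC and scivMSC in turn, 2 to 4, 0 to 2 and 0 to 1 other Mas-related genes, 3 to 4, 0 to 4 and 0 to 1 ligand genes, 2 to 5, 1 to 4 and 0 to 2 signalling genes, 4 to 9, 1 to 3 and 0 to 1 mast cell genes, and 13 to 15, 14 to 15 and 8 to 14 neutrophil genes. The count of 0 other Mas-related genes against scMSC came without DNCB replicate 2, and those of 0 ligand genes against scMSC without DNCB replicate 3 or scMSC replicate 2. The 9 mast cell genes came without scivMSC replicate 3, and the 8 neutrophil genes without scivMSC replicate 1.

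The replicate numbers did not pair the mice. Deviations of same-numbered libraries from their group means correlated at -0.185 to 0.133 (18 pairs, median -0.022), and other pairs at -0.148 to 0.148. With the replicate number as a block, ligand genes against scMSC numbered 2 in place of 4, and no other result moved beyond its limit. Over 44 results and 835 alternatives, 724 values were the same by a limit set for each kind of result, 110 moved and 1 reversed. Tested folds had to keep direction and side of the threshold, and other folds to stay within the spread. Counts had to equal the main count or stay close to it. At 4 estimated counts a fragment, Mrgprb2 and the low Mrgprb3 values rest on few fragments.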

Other observations

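Mrgprg, a Mas-related receptor gene that lies outside the cluster described above, reached its highest values in MSC-treated skin, with wide spread. It was at 0, 0.128 and 0.0542 FPKM in control skin and at 0, 1.7 and 0.21 FPKM in DNCB skin. It was at 15.8, 1.48 and 3.27 FPKM in scMSC skin and at 18.9, 15.3 and 0.698 FPKM in scivMSC skin. The log2 fold change of DNCB was -3.38 ± 1.58 against scMSC (edgeR adjusted p = 0.21) and -4.14 ± 1.63 against scivMSC (edgeR adjusted p = 0.155), so neither passed. Against control skin it was higher by 6.56 ± 1.91 in scMSC (edgeR adjusted p = 0.037) and by 7.31 ± 1.97 in scivMSC skin (edgeR adjusted p = 0.0336), and both passed, but the control libraries held 0, 19 and 8 estimated counts, so the size of these folds is uncertain. The 10 hair shaft and inner root sheath genes summed to 6410, 18100 and 9210 FPKM in scMSC replicates 1 to 3. In scivMSC replicates 1 to 3 the sums were 5890, 2410 and 3330 FPKM. They were 289 to 903 FPKM in DNCB and 6.27 to 318 FPKM in control libraries. Within scMSC skin the library with the highest sum held the lowest Mrgprg value. In scivMSC and in control skin the library with the highest sum held the highest Mrgprg value. In DNCB skin the library with the lowest sum held the highest. Whether Mrgprg follows these genes was not tested. Sebaceous genes, listed to describe the other structures of the skin, fell in DNCB against control in 5 of 5 (median log2 fold change -3.29). Of all genes, 7.57% were called lower in that comparison and 6.59% higher. The 6 macrophage genes had a median of 0.62 in the same comparison, and 0 of them were called. Of 5 T cell genes tested against control, Cd4 rose (1.78 ± 0.55, edgeR adjusted p = 0.0357) and the other 4 were at -1.61 to -0.33 without passing, for a median of -1.16. Of 3 basophil and eosinophil genes tested Ccr3 rose (3.91 ± 1.18, edgeR adjusted p = 0.0324).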
